A study of Homo sapiens with 12 samples.

Results

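The mitosis and G2/M genes described here are 40 genes whose products carry a cell from the end of DNA replication through chromosome segregation to cytokinesis. They were chosen by gene symbol, and all 40 were found among the 20307 genes of the expression table. All 40 also passed the filter on low counts in every fit. By role they are 4 cyclin and CDK1 genes, 3 mitotic kinases, 3 spindle checkpoint genes, 4 genes of anaphase control and cohesion, 5 of the centromere and kinetochore and 2 subunits of the chromosomal passenger complex. The others are 5 kinesins, 7 spindle assembly factors, 3 cytokinesis genes, 2 transcription factors, and the pair TOP2A and MKI67.

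In cycling cells these genes are switched on late, after the genes of DNA replication. The DREAM complex keeps them silent in resting cells, and B-MYB (the product of MYBL2) and then FOXM1, each bound to the MuvB core, turn them on. Both acts pass through a promoter element named the cell cycle genes homology region (CHR), which is often found beside CCAAT boxes bound by the factor NF-Y. The summed level of such genes is widely used as a measure of how many cells of a sample are dividing. Phorbol ester (PMA) makes THP-1 monocytic leukaemia cells leave the cycle as they take on macrophage features.

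RNA-seq covered 12 libraries of 2 established human lines, with 3 libraries in each of 4 groups. In the groups labelled TAM-OE and TAM-C, wild-type THP-1 cells had PMA for 24 h and then 48 h with H1299-DCBLD2 (TAM-OE) or with control H1299 (TAM-C). The sample labels name a supernatant and the design text a co-culture, so it is not settled whether the cells touched. In the groups labelled OE and C, H1299 non-small-cell lung carcinoma cells carried the genotype labels DCBLD2 overexpression (OE) and WT (C). The labels name no construct, promoter, clone or empty vector, nor whether replicates were cultured separately. A p-value here thus covers no more than the spread of these libraries, which may be technical. Myeloid identity held in THP-1, where all 14 myeloid markers had a mean of at least 1 TPM, while 12 of the 14 lay under 1 TPM in H1299. Of the carcinoma markers, KRT8 and KRT18 were abundant in H1299, but KRT19 was close to absent there, with group means of at most 0.177 TPM.

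DCBLD2, the membrane receptor after which the OE groups are named, went against the H1299 labels. It had 105, 98.2 and 92.5 TPM in the H1299 libraries labelled OE, against 247, 148 and 196 TPM in those labelled C, a log2 fold change of -1.27 ± 0.17 (SE, edgeR adjusted p = 0.00284). In THP-1, whose own DCBLD2 was not labelled as altered, the values were 6.53, 6.61 and 6.27 TPM in TAM-OE and 11.4, 12.2 and 12 TPM in TAM-C. Directions are given as labelled, against what this gene shows in H1299. Libraries held 18606739 to 26787853 estimated reads in THP-1 and 14578887 to 23388187 in H1299. Levels are given in TPM, a measure per transcript length, and changes as log2 fold changes of estimated counts with their SE, called at an adjusted p under 0.05 over all genes tested.

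In THP-1 cells the mitotic genes were higher almost throughout in the libraries labelled TAM-OE. Of the 40 genes, 36 were higher, 1 (AURKA) was lower and 3 (SGO1, KIF23 and RACGAP1) were not called. Many other genes moved as well: 68.1% of the 13120 genes tested were called, 34.5% higher and 33.6% lower. The median log2 fold change was 0.88 over the 40 genes and 0.00046 over all genes tested. The called rises ran from 1.25-fold to 4.59-fold, and 19 of them were at least 2-fold. The summed level of the 40 genes was 236 to 242 TPM in libraries labelled TAM-OE, against 154 to 166 TPM in those labelled TAM-C, and without AURKA 216 to 221 TPM against 120 to 129 TPM. In TPM the groups did not overlap for 36 of the 40 genes and for 64.9% of all genes tested. In bulk RNA, fewer dividing cells and less of these transcripts in each cell cannot be told apart.

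These calls rest on replicates that lie very close together. The common biological coefficient of variation from edgeR was 1.96% in THP-1 and 13.3% in H1299. In a likelihood ratio test with the common H1299 spread fixed for every gene, 35 of the 40 THP-1 genes were called. Of these 34 were higher and 1 lower, beside 34.5% of all genes called. That test is not the quasi-likelihood test behind the H1299 calls, which lets the spread differ between genes. When a change beyond 1.5-fold was required, 20 were higher and 1 lower, beside 11.5% of all genes called. Leaving out any 1 library gave 36 or 37 calls, and 36 of the 37 genes kept theirs in every omission. Fewer reads lie behind these values than in H1299: across THP-1 libraries a gene of the 40 had between 7 (CENPA) and 1123 (CDC20) estimated reads.

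Promoters of the mitotic genes were read as the RefSeq reference sequence of build GRCh38.p14. Each window runs from 250 bases before to 50 bases after the gene's start. A promoter was found for 33 of the 40 genes, in 37 windows. AURKA, BIRC5, FOXM1, RACGAP1, TPX2, TTK and UBE2C had no entry. The letters searched on both strands were TTTGAA, the core of the CHR, CCAAT, the NF-Y box, and the E2F letters TTTGGCGC, TTTCCCGC, TTTCGCGC and TTTGCCGC. The 5 sequences below are printed 5′ to 3′ along the gene with matches in capitals (TTCAAA and ATTGG are the same CHR and CCAAT letters read from the other strand), and each was picked for what it shows. CCNB2 (chr15:59104896-59105195, plus strand) has the classical layout of spaced CCAAT boxes before a CHR core, and HMMR (chr5:163460382-163460681, plus strand) has the largest rise in THP-1 among genes with a match. CCNB1 (chr5:69166900-69167199, plus strand) was higher in THP-1 with no TTTGAA in the window. Only TTTGAA was searched as the core, so its absence does not show that a gene lacks a CHR. E2F sites were likewise searched only as the letters given, so no match does not show that a gene lacks such a site. KIF23 (chr15:69414099-69414398, plus strand) has both letters and was not called in either line. MYBL2 (chr20:43666864-43667163, plus strand) has none of the searched letters and rose in THP-1.
CCNB2: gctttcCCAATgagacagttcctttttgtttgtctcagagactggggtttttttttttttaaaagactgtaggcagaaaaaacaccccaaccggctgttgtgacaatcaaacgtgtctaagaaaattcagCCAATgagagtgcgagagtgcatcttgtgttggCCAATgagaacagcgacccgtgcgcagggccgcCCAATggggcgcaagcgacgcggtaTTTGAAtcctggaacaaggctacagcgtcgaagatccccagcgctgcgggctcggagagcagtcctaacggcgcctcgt
HMMR: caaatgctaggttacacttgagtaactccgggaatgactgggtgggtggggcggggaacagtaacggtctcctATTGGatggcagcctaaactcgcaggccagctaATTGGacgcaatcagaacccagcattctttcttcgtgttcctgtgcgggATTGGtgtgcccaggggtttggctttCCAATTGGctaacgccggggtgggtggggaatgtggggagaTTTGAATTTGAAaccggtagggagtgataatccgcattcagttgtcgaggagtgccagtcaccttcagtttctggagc
CCNB1: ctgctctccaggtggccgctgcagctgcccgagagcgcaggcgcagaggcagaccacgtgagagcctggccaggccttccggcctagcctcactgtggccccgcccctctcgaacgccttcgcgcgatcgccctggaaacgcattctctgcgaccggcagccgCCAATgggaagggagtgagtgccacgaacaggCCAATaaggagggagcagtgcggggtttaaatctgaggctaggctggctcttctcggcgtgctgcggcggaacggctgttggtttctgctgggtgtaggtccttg
KIF23: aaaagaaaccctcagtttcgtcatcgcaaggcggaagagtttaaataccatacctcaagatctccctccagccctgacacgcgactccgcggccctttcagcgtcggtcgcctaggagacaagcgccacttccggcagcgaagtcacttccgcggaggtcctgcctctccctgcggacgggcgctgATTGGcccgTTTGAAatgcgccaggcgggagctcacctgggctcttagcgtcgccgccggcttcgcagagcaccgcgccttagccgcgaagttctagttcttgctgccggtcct
MYBL2: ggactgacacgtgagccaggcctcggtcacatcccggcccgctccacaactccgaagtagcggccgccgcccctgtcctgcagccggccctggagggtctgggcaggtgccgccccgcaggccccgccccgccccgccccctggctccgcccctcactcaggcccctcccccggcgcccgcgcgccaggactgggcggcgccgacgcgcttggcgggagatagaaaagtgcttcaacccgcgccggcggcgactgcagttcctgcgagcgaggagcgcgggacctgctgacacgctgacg

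The CHR core, as the letters TTTGAA, was found in 23 of the 33 genes (69.7%), against 18.2% of all 27305 genes with a promoter window. CCAAT was found in 26 of the 33 genes (78.8%), against 39.7% of all genes, and an E2F match in 3 of the 33 (9.09%), against 3.99% of all genes. The CHR cores of the 40 genes lay mostly close to the start, between 40 bases before and 20 after it in 17 of 33 genes (51.5%), where 3.98% of all genes have the letters. That interval was set after the positions had been seen. A CHR core on the gene's own strand in that interval together with a CCAAT box anywhere in the window was held by 12 of the 33 (36.4%) and by 0.798% of all genes. In CCNB2 the last 3 CCAAT boxes start 33 bases apart and the CHR core starts 25 bases after the last, a distance also found in KIF11 and DLGAP5. In HMMR a CCAAT box overlaps its own reverse and 2 CHR cores stand side by side. CENPE, KIF2C and MYBL2 have no match to the searched letters in these windows, which does not show that they lack such elements. CENPE and MYBL2 are among the 4 largest rises in THP-1. A match is a description of letters, and binding was not measured here. The 40 genes were chosen as mitotic genes, so these shares are no result about the THP-1 change.

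**Figure D1:**
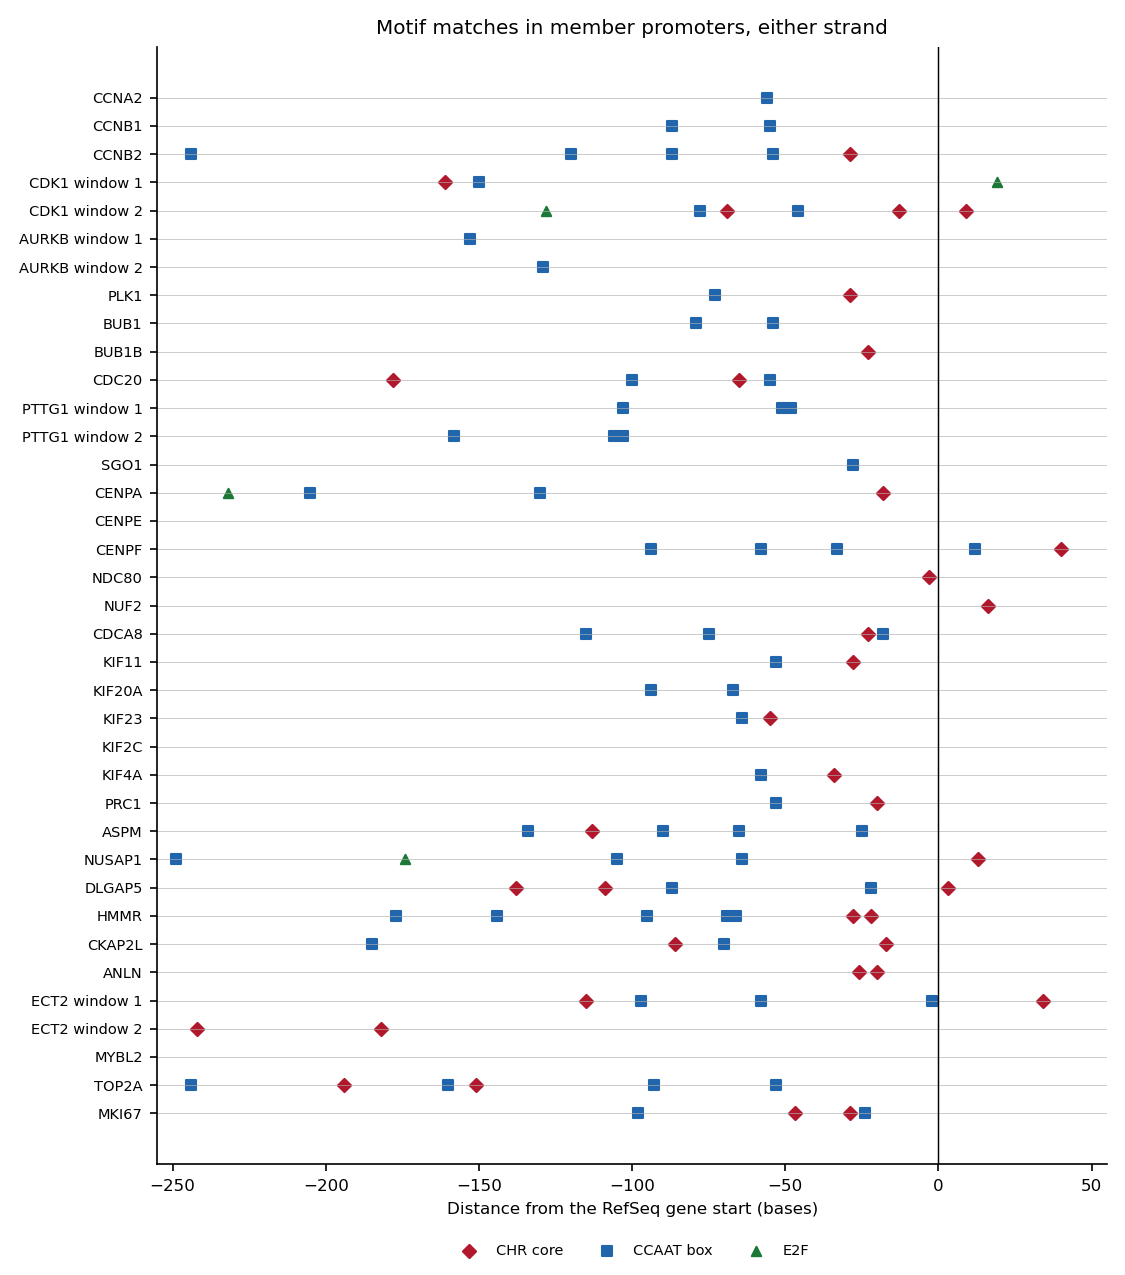
Positions of CHR core (diamonds), CCAAT (squares) and E2F letters (triangles) on either strand in 37 promoter windows of 33 genes, with distance from the RefSeq gene start in bases on the horizontal axis. CHR cores gather just before the start line, within 40 bases before to 20 after it in 17 genes, and CCAAT boxes mostly stand farther from the start.

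The cyclins and their kinase rose together in THP-1, 4 of 4. CDK1, the kinase that drives entry into mitosis, had 10.6, 10.3 and 8.70 TPM in libraries labelled TAM-OE, against 3.56, 3.40 and 2.91 TPM in those labelled TAM-C, a log2 fold change of 1.62 ± 0.12 (SE, edgeR adjusted p = 8.9e-12). Every TAM-OE library was above every TAM-C library for this gene. CCNB1, the cyclin B that activates CDK1, had 8.84, 8.65 and 6.06 TPM in TAM-OE and 5.73, 5.55 and 3.79 TPM in TAM-C (log2 fold change 0.63 ± 0.14, adjusted p = 0.000329). The groups did not overlap, but the lowest TAM-OE library stood just above the highest TAM-C library. CCNB2, the second mitotic cyclin B, rose by 0.75 and CCNA2, the cyclin of S phase and early mitosis, by 1.04 on the log2 scale.

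Among the mitotic kinases the Aurora pair went in opposite directions in THP-1. AURKA, the centrosomal kinase that matures spindle poles (ENSG00000087586, chromosome 20, 56369389 to 56392337, minus strand), had 18.4, 20.6 and 22.3 TPM in libraries labelled TAM-OE, against 34.9, 37.5 and 38.0 TPM in those labelled TAM-C. Its log2 fold change was -0.81 ± 0.05 (SE, edgeR adjusted p = 4.71e-13), and the groups lay well apart. AURKB, the kinase of the chromosomal passenger complex, had 4.64, 2.98 and 2.18 TPM in TAM-OE, against 1.67, 1.35 and 1.62 TPM in TAM-C (1.12 ± 0.28, adjusted p = 0.0012). The 3 TAM-OE libraries were all higher but spread widely. The ratio of mean AURKA to mean AURKB was 6.25 in TAM-OE and 23.8 in TAM-C, beside 1.28 in H1299 labelled OE and 1.17 in H1299 labelled C. PLK1, the polo-like kinase of mitotic entry and spindle assembly, rose by 0.68 ± 0.14 on the log2 scale. PLK1 overlaps ERN2 on the opposite strand, and strand handling is not given in the sources used here.

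The 3 spindle checkpoint genes, which hold anaphase until every chromosome is attached, rose in THP-1. BUB1, a checkpoint kinase at the kinetochore, had 2.32, 2.18 and 2.43 TPM in libraries labelled TAM-OE and 1.76, 1.53 and 1.72 TPM in those labelled TAM-C (log2 fold change 0.52 ± 0.15, edgeR adjusted p = 0.00317). The rise was small and the groups did not overlap. Its call was lost when all 12 libraries shared a fit, as it was when more than 1.5-fold was asked for. BUB1B, the BubR1 inhibitor of CDC20, rose by 0.61 and TTK, the Mps1 kinase that starts checkpoint signalling, by 1.33 on the log2 scale.

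Of the 4 genes of anaphase control and cohesion, 3 rose in THP-1. CDC20, which activates the anaphase-promoting complex, had the highest mean TPM of the 40 genes over the 6 libraries of each line. It had 43.5, 44.2 and 44.8 TPM in libraries labelled TAM-OE, against 23.1, 29.1 and 21.8 TPM in those labelled TAM-C, a log2 fold change of 0.88 ± 0.07 (SE, edgeR adjusted p = 1.19e-11). The TAM-OE libraries lay close to each other and above all 3 TAM-C libraries. PTTG1 (securin, the inhibitor of separase) rose by 0.56 on the log2 scale. UBE2C, the ubiquitin-conjugating enzyme of the anaphase-promoting complex, was called at 0.50 ± 0.20 (adjusted p = 0.0324), but its groups overlapped. The UBE2C call was lost without TAM-C 1 or 2 or TAM-OE 1 or 2, with adjusted p of 0.065 to 0.21. SGO1 (shugoshin, which protects centromeric cohesion) was not called, at 0.46 ± 0.26 (adjusted p = 0.127).

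Centromere and kinetochore genes had the largest rises by role in THP-1, 5 of 5 with a median log2 fold change of 1.69. CENPE, the kinesin that carries chromosomes to the spindle equator (ENSG00000138778, chromosome 4, 103105806 to 103198409, minus strand), had 0.559, 0.910 and 0.618 TPM in libraries labelled TAM-OE, against 0.237, 0.186 and 0.131 TPM in those labelled TAM-C. Its log2 fold change of 2.2 ± 0.26 (SE, edgeR adjusted p = 3.87e-08) was the largest of the 40, from 56 to 76 estimated reads per library in TAM-OE and 9 to 18 in TAM-C. NDC80, the microtubule-binding core of the outer kinetochore (ENSG00000080986, chromosome 18, 2571511 to 2616635, plus strand), had 4.14, 3.44 and 4.30 TPM in TAM-OE and 0.690, 1.46 and 1.05 TPM in TAM-C (1.92 ± 0.21, adjusted p = 7.67e-09). NUF2, its partner in the same complex, rose by 1.5. For both the groups were far apart. CENPF, a large kinetochore and nuclear matrix protein, had 1.40, 1.44 and 1.23 TPM in TAM-OE and 0.458, 0.421 and 0.416 TPM in TAM-C (1.69 ± 0.13, adjusted p = 2.7e-11). CENPA, the histone H3 variant that marks centromeres, had 1.17, 1.36 and 1.42 TPM in TAM-OE and 0.722, 0.476 and 0.469 TPM in TAM-C (1.24 ± 0.35, adjusted p = 0.00277). CENPA rested on the fewest reads, between 7 and 29 per library.

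Both chromosomal passenger subunits rose in THP-1. BIRC5 (survivin, the subunit that brings AURKB to the centromere) had 6.51, 6.16 and 7.35 TPM in libraries labelled TAM-OE and 3.10, 2.86 and 2.30 TPM in those labelled TAM-C, a log2 fold change of 1.14 ± 0.12 (SE, edgeR adjusted p = 8.68e-09). The groups did not overlap. CDCA8 (borealin), the other subunit, rose by 0.71 on the log2 scale. Of the 5 kinesins, 4 rose. KIF2C, the microtubule depolymerase at centromeres, had the highest level of the 5, with 7.05, 6.69 and 7.14 TPM in TAM-OE and 4.68, 5.42 and 5.27 TPM in TAM-C (0.62 ± 0.10, adjusted p = 3.95e-06). KIF11 (Eg5, which pushes spindle poles apart) rose by 1.65, KIF4A (the chromokinesin of the spindle midzone) by 1.20 and KIF20A (of the cytokinetic midzone) by 1.07. The groups of KIF20A overlapped in TPM. KIF23, the motor of the centralspindlin complex, was not called, at 0.17 ± 0.13 (adjusted p = 0.254), with 2.94 to 3.05 TPM in TAM-OE and 2.38 to 3.13 TPM in TAM-C.

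All 7 spindle assembly factors rose in THP-1, with a median log2 fold change of 0.89. HMMR, a spindle pole and hyaluronan-binding protein (ENSG00000072571, chromosome 5, 163460203 to 163491945, plus strand), had 2.92, 3.18 and 2.64 TPM in libraries labelled TAM-OE, against 0.435, 1.22 and 0.702 TPM in those labelled TAM-C. Its log2 fold change was 1.92 ± 0.21 (SE, edgeR adjusted p = 1.13e-08), and its lowest TAM-OE library was above every TAM-C library. DLGAP5 (HURP, which stabilizes kinetochore fibres) had 0.987, 1.26 and 1.65 TPM in TAM-OE and 0.531, 0.307 and 0.387 TPM in TAM-C (1.60 ± 0.28, adjusted p = 2.25e-05). TPX2, the activator of AURKA at the spindle, had 4.97, 4.98 and 4.38 TPM in TAM-OE and 3.15, 3.63 and 3.03 TPM in TAM-C (0.59 ± 0.11, adjusted p = 2.25e-05). TPX2 thus rose in the same libraries in which AURKA fell. ASPM, of the spindle poles, rose by 1.11, NUSAP1, which bundles microtubules, by 0.89, CKAP2L by 0.87 and PRC1, the cross-linker of the midzone, by 0.49 on the log2 scale.

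Of the 3 cytokinesis genes 2 rose in THP-1. ANLN (anillin, the scaffold of the contractile ring) rose by 1.29 ± 0.14 and ECT2, the exchange factor that activates RhoA at the cleavage furrow, by 0.33 ± 0.10 on the log2 scale (edgeR adjusted p = 1.33e-08 and 0.00697). The ECT2 call was lost in 5 of 16 alternatives, none of which left out a library. RACGAP1, the partner of KIF23 in centralspindlin, had 3.62, 4.18 and 5.27 TPM in libraries labelled TAM-OE and 4.83, 4.75 and 4.99 TPM in those labelled TAM-C (-0.22 ± 0.13, adjusted p = 0.144). Its groups overlapped, and without TAM-C 1 it was called lower (adjusted p = 0.0204). Both centralspindlin subunits were among the 3 genes not called. RACGAP1 overlaps AQP6, and ANLN overlaps KIAA0895, on the opposite strand.

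Both transcription factors of the program rose in THP-1. MYBL2, the B-MYB factor (ENSG00000101057, chromosome 20, 43667019 to 43716496, plus strand), had 15.1, 15.1 and 14.5 TPM in libraries labelled TAM-OE, against 4.88, 4.40 and 4.49 TPM in those labelled TAM-C. Its log2 fold change was 1.73 ± 0.08 (SE), and its edgeR adjusted p of 2.34e-16 was the smallest of the 40. FOXM1, the forkhead factor of G2 and mitosis (ENSG00000111206, chromosome 12, 2857681 to 2877155, minus strand), had 3.08, 2.50 and 3.77 TPM in TAM-OE and 1.40, 2.01 and 2.04 TPM in TAM-C (0.75 ± 0.16, adjusted p = 0.000146). FOXM1 overlaps RHNO1 and ITFG2 on the opposite strand. TOP2A, the topoisomerase that untangles sister chromatids, had 4.0, 4.04 and 4.07 TPM in TAM-OE and 1.88, 1.44 and 1.81 TPM in TAM-C (1.27 ± 0.10, adjusted p = 2.59e-11). MKI67, the Ki-67 antigen used to stain dividing cells, rose by 0.74 ± 0.06. The plot of TPM in each library shows the tight TAM-OE values of MYBL2 and TOP2A.

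**Figure D2:**
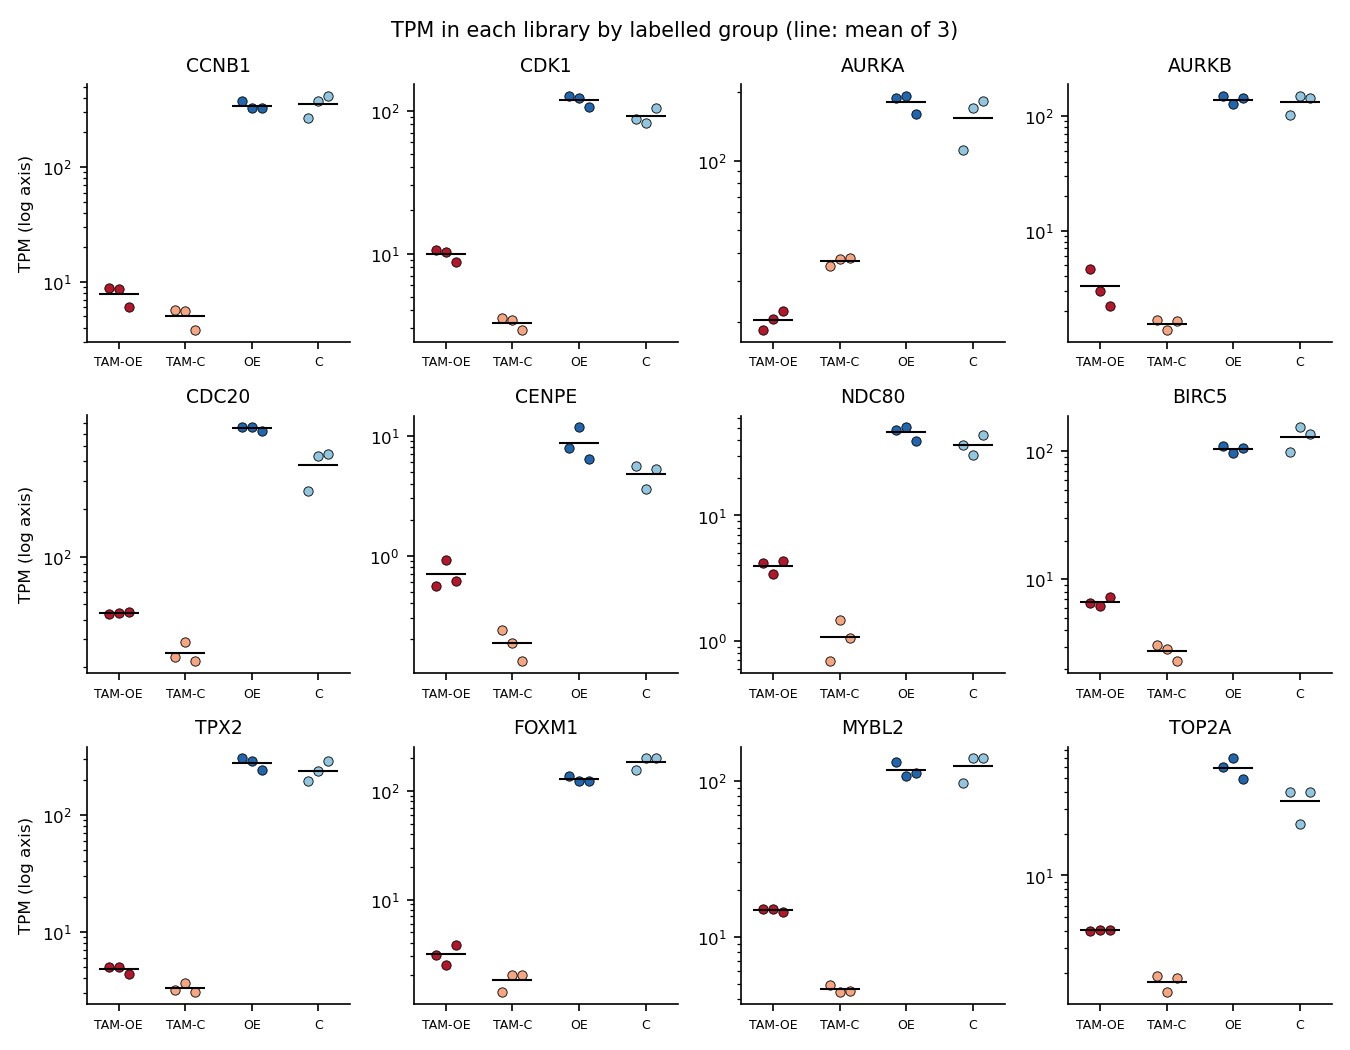
TPM on a log axis in each library for 12 of the genes, by labelled group (TAM-OE, TAM-C, OE, C), with a line at the mean of 3. In THP-1 the TAM-OE points stand above the TAM-C points in 11 panels and below them in the AURKA panel, while the H1299 groups overlap in 7 panels.

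Signs of other cell material were measured beside the THP-1 rises. The summed level of the 18 carcinoma markers was 392 to 406 TPM in libraries labelled TAM-OE, against 423 to 443 TPM in those labelled TAM-C, and of the 14 markers tested 5 were higher and 6 lower. KRT18, a keratin abundant in H1299, averaged 1.01 TPM in TAM-OE and 0.204 TPM in TAM-C, and KRT19 was at 0. Over the 16 carcinoma markers at 1 TPM or more in H1299, the THP-1 mean ran between 0.0526% (KRT18) and 121% (TGFB2) of the H1299 mean, with a median of 9.73%, KRT8 at 0.0808% and NT5E at 82.8%. Over the 40 mitotic genes it ran between 1.55% and 17.1%. The 14 myeloid markers summed to 10056 to 10237 TPM in TAM-OE and 8529.5 to 8587 TPM in TAM-C, with 9 higher and 4 lower. Lymphocyte, endothelial and fibroblast markers summed to 152 to 161 TPM in TAM-OE and 186 to 189.7 TPM in TAM-C, nearly all PECAM1. Without PECAM1 they summed to 12.8 to 13.1 TPM in TAM-OE and 19.5 to 19.7 TPM in TAM-C, and CD3E, CD2 and MS4A1 were at 0 in both. The part of these shifts in the mitotic result was not tested.

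In H1299 cells fewer of the genes moved, and none by 2-fold. Of the 40, 11 were higher in the libraries labelled OE, 1 (FOXM1) was lower and 28 were not called, beside 20.9% of all 12773 genes tested, 10.3% higher and 10.6% lower. The median log2 fold change was 0.18 over the 40 genes and 0.0047 over all genes. In TPM the groups did not overlap for 12 of the 40 genes and for 37.5% of all genes tested. The summed level of the 40 genes was 4329.9 to 4868 TPM in OE and 3421 to 4727 TPM in C, so these ranges overlapped. The calls rest on single libraries. Without OE 1, 3 genes were called (DLGAP5, TOP2A and FOXM1), beside 10.6% of all genes. Without OE 2 it was 1 (DLGAP5), beside 3.98%, and without C 1 it was 16, beside 24.5%. The share of all genes called thus moved the same way. CENPE also lost its call without C 3, and CDK1 lost its call in every omission except that of C 3. Over these losses the adjusted p ran from 0.0554 to 0.16.

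In H1299 3 of the 5 centromere and kinetochore genes, 2 of the 7 spindle assembly factors, 2 of the 3 cytokinesis genes and 1 of the 3 spindle checkpoint genes rose. CENPF had 18.1, 20.1 and 13.2 TPM in libraries labelled OE, against 11.4, 5.19 and 9.96 TPM in those labelled C, a log2 fold change of 0.95 ± 0.23 (SE, edgeR adjusted p = 0.0222). CENPE had 7.89, 11.8 and 6.44 TPM in OE and 5.61, 3.61 and 5.29 TPM in C (0.92 ± 0.26, adjusted p = 0.0348). In both genes C 2 was the lowest library and OE 2 the highest. DLGAP5 had 37.0, 39.4 and 27.9 TPM in OE and 19.7, 15.6 and 22.8 TPM in C (0.89 ± 0.16, adjusted p = 0.0071), and kept its call without any 1 library. HMMR, with 53.4, 53.7 and 40.1 TPM in OE and 33.5, 22.5 and 37.2 TPM in C, rose by 0.69 on the log2 scale. Again OE 3 was the lowest OE library and C 2 the lowest C library. ANLN (0.72), ECT2 (0.69), BUB1 (0.59) and NUF2 (0.52) made up the other called rises of these roles, as log2 fold changes. BUB1 had 99.1, 102 and 74.8 TPM in OE and 53.2, 54.7 and 75.1 TPM in C, and is the called H1299 gene whose groups overlapped. All of these calls except that of DLGAP5 were lost without OE 1 and without OE 2, at adjusted p between 0.0554 and 0.16.

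Outside those roles, 3 more genes rose in H1299 and 1 fell. TOP2A had 60.1, 69.9 and 49.5 TPM in libraries labelled OE, against 39.9, 23.5 and 39.9 TPM in those labelled C, a log2 fold change of 0.79 ± 0.17 (SE, edgeR adjusted p = 0.015). CDC20 had 658, 657 and 623 TPM in OE and 260, 435 and 443 TPM in C (0.75 ± 0.18, adjusted p = 0.0197). For TOP2A the lowest library was C 2, and for CDC20 it was C 1. CDK1 rose by 0.36 ± 0.10 (adjusted p = 0.0373). FOXM1 fell, with 136, 122 and 124 TPM in OE and 157, 200 and 199 TPM in C (-0.55 ± 0.12, adjusted p = 0.0153). Its OE libraries were all below its C libraries. The TOP2A and FOXM1 calls were lost without OE 2 (adjusted p = 0.0822 and 0.0869), that of CDC20 without OE 1 or OE 2 (adjusted p between 0.0632 and 0.0803), and that of CDK1 in 9 of 15 alternatives.

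The 28 genes not called in H1299 had log2 fold changes between -0.41 and 0.64. CCNB1, the most abundant cyclin, had 376, 324 and 324 TPM in libraries labelled OE and 267, 374 and 414 TPM in those labelled C (-0.05 ± 0.15, edgeR adjusted p = 0.823). AURKA had 188, 191 and 160 TPM in OE and 111, 170 and 182 TPM in C (0.18 ± 0.16, adjusted p = 0.432), and MYBL2 had 132, 107 and 112 TPM in OE and 96.7, 140 and 139 TPM in C (-0.11 ± 0.16, adjusted p = 0.643). For all of these C 1 was the lowest library of its group, and the groups overlapped. NDC80 had 48.3, 50.5 and 39.4 TPM in OE and 36.3, 30.2 and 43.5 TPM in C (0.28 ± 0.13, adjusted p = 0.152). BIRC5 had 110, 95.9 and 105 TPM in OE and 98.6, 154 and 135 TPM in C (-0.41 ± 0.15, adjusted p = 0.0774), and was called lower without C 1 (adjusted p = 0.00955). TPX2 had 306, 292 and 243 TPM in OE and 195, 236 and 287 TPM in C (0.22 ± 0.14, adjusted p = 0.272). Overlap was also seen for KIF2C, with 109, 110 and 97.0 TPM in OE and 77.2, 107 and 115 TPM in C (0.11 ± 0.15). It was seen for CENPA, with 57.4, 43.4 and 43.3 TPM in OE and 42.1, 63.1 and 63.8 TPM in C (-0.24 ± 0.18). RACGAP1 had 115, 112 and 104 TPM in OE and 113, 117 and 132 TPM in C (-0.08 ± 0.10). With SEs of 0.10 to 0.24, changes of the size of these SEs were not detectable in this line. TTK, at 0.51 (adjusted p = 0.0535), and ASPM, at 0.64 (adjusted p = 0.0812), missed the threshold, and each was called without C 1.

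**Figure D3:**
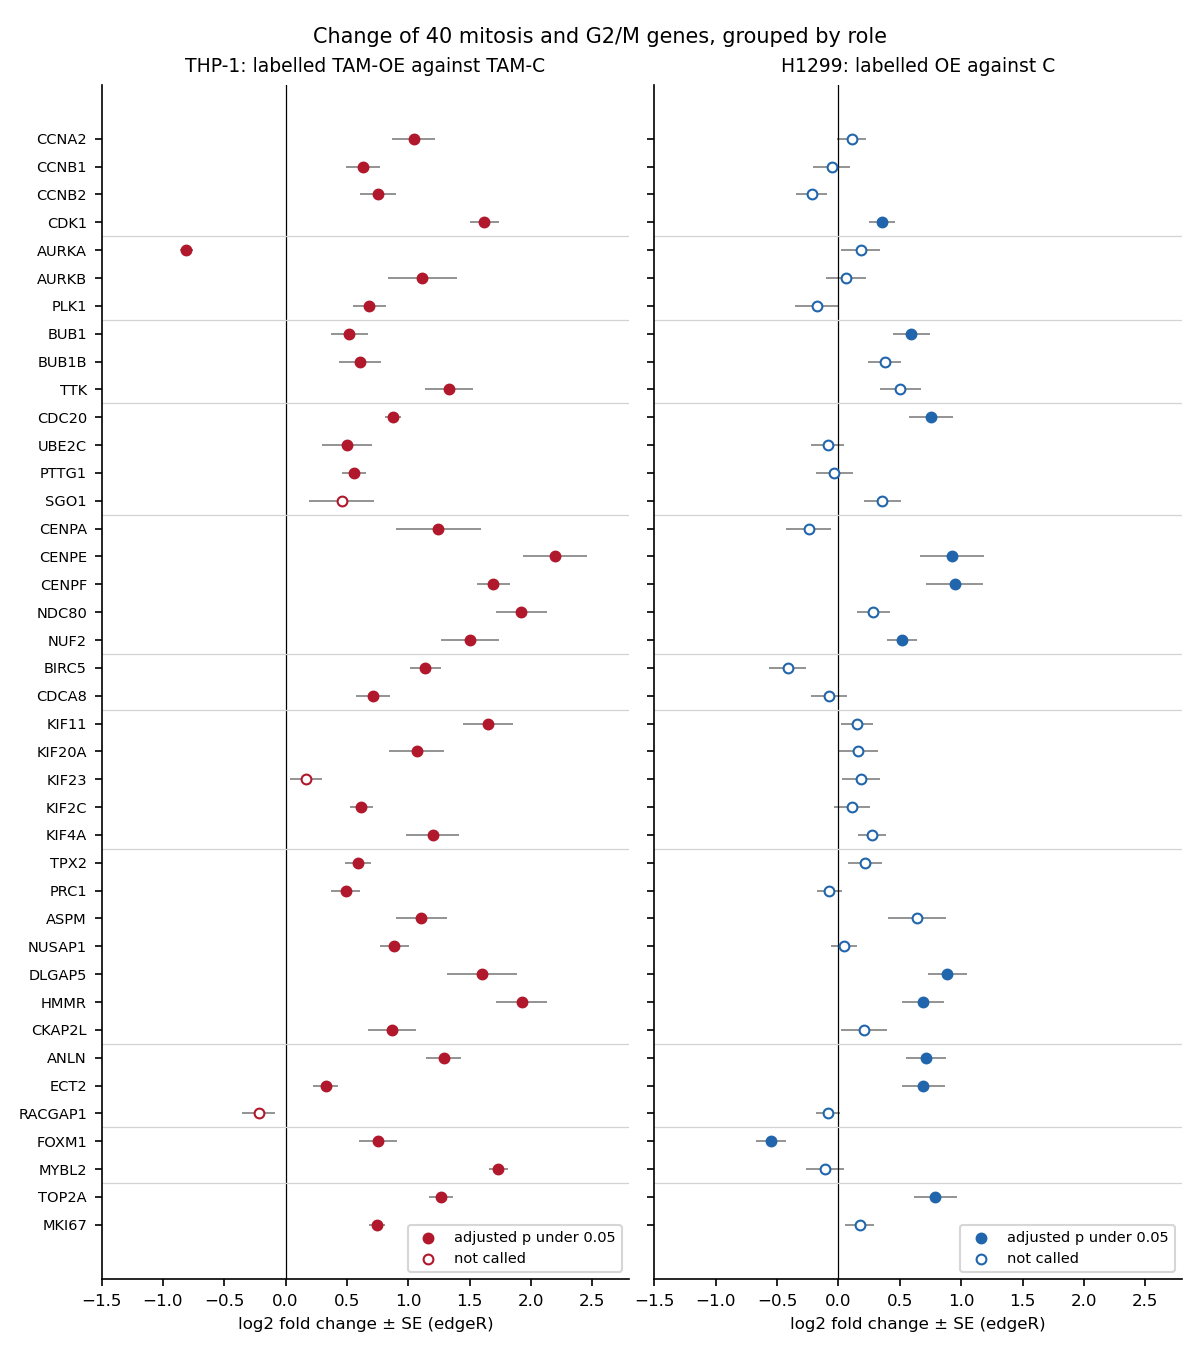
Log2 fold change with its SE for each of the 40 genes, ordered by role, in THP-1 (labelled TAM-OE against TAM-C, left) and H1299 (labelled OE against C, right), where filled points have an adjusted p under 0.05. In THP-1 36 filled points lie right of 0 and AURKA lies left, while in H1299 11 lie right, FOXM1 lies left and 28 are open.

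Set side by side, 11 genes were higher in both lines, and 24 were higher in THP-1 and not called in H1299. With 36 of the 40 higher in THP-1, these counts do not show that the lines moved together. The same share over all genes was not counted. FOXM1 was higher in THP-1 and lower in H1299, and AURKA was lower in THP-1 and not called in H1299. A test of the difference itself, over all 12 libraries, called 22 of the 40 genes. In THP-1 the change was more positive for 21 and more negative for AURKA. Of all 14244 genes tested 38.7% were called, 19.3% with the more positive change in THP-1 and 19.5% with the more negative. The largest differences, as the THP-1 log2 fold change minus that of H1299, were those of MYBL2 at 1.83, NDC80 at 1.62, BIRC5 at 1.54, KIF11 at 1.48 and CENPA at 1.48. FOXM1 differed by 1.29 ± 0.22 and AURKA by -1.0 ± 0.20 (SE, edgeR adjusted p = 0.00118 for AURKA). Both transcription factors and both passenger subunits were among the genes that differed, and none of the 3 cytokinesis genes was. CENPE (1.26 ± 0.50, adjusted p = 0.0627) and CENPF (0.73 ± 0.34, adjusted p = 0.112), which rose in both lines, were not called different. Of the 22 calls, 16 held without any 1 library, and those of AURKB, KIF20A, PLK1, PRC1, PTTG1 and TTK were lost in between 2 and 8 of the 12 omissions, at adjusted p of 0.0525 to 0.172. Another 12 genes, not called with all libraries, were called different in some omission. ANLN and CENPF were called without C 2 (adjusted p = 0.00313 and 0.00107), and CENPE without C 2 or OE 2 (0.00302 to 0.0194).

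The level of these genes differed far more between the lines than between the groups of a line. All 40 were lower in THP-1 than in H1299, with a median log2 fold change of -4.32, beside 89.7% of all 14244 genes called, 44% higher and 45.7% lower in THP-1. Line, PMA and culture cannot be told apart in this comparison. The THP-1 mean was between 1.55% (TPX2) and 17.1% (AURKA) of the H1299 mean, with a median of 4.35%. AURKA stood apart, since PRC1, the next, was at 9.46%. GENCODE lists 2 pseudogenes named after AURKA, with 0 of them in the expression table. Whether their reads were counted as AURKA was not tested. In the libraries labelled TAM-C, AURKA was at 23.9% of its level in those labelled C, and FOXM1 at 0.978%. By mean TPM the order in THP-1 was CDC20 (34.4), AURKA (28.6), PTTG1 (23.2) and MYBL2 (9.74), and in H1299 it was CDC20 (513), PTTG1 (445), UBE2C (349) and CCNB1 (347). ASPM and CENPE were the lowest 2 in both lines. In TAM-OE libraries CDC20 and PTTG1 exceeded AURKA, and in TAM-C libraries AURKA was above both. In libraries labelled C the mean of PTTG1, at 448 TPM, was above that of CDC20, at 379 TPM, and their ranges overlapped.

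**Figure D4:**
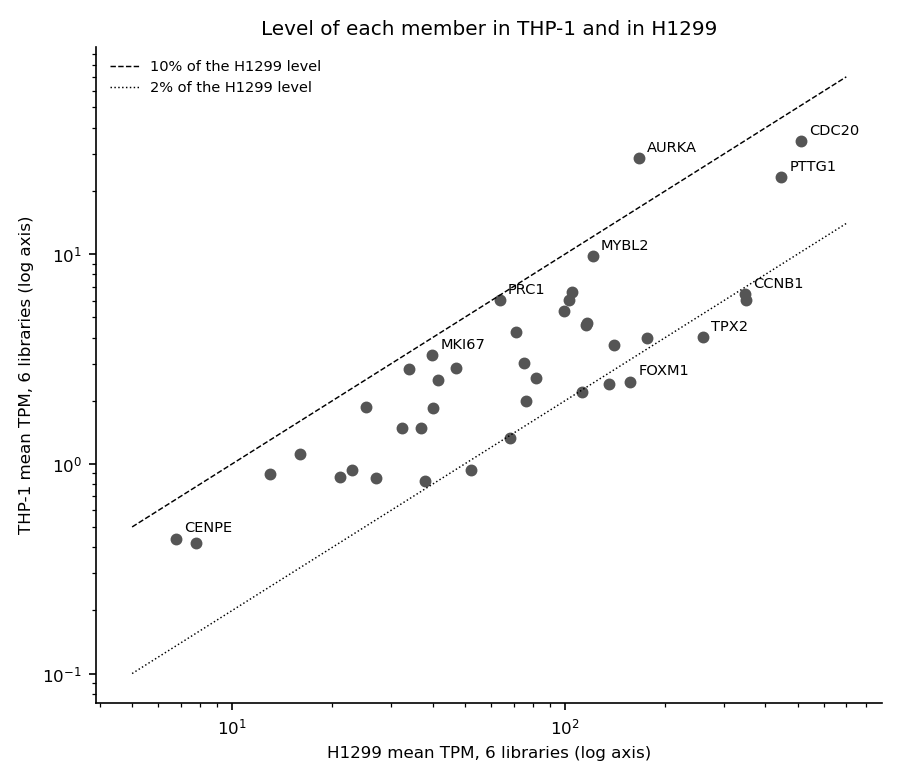
Mean TPM of each of the 40 genes over 6 THP-1 libraries (vertical, log axis) against 6 H1299 libraries (horizontal, log axis), with lines at 10% and 2% of the H1299 level. AURKA is the gene above the 10% line, at 17.1%, and 8 genes lie below the 2% line, the lowest of them TPX2 at 1.55%.

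The H1299 changes moved with the base composition of the transcripts. Over the 40 genes the Spearman correlation of the log2 fold change with the GC content of the longest coding transcript was -0.69 in H1299 and -0.38 in THP-1, and over all genes tested with such a transcript it was -0.43 (n = 12600) and -0.11 (n = 12935). These correlations are across genes that share the same libraries and are descriptions only. Of the 20 genes with the lower GC (35.3% to 43.2%), 10 were higher and 0 lower in H1299, with a median of 0.51. Of the 20 with the higher GC, 1 (CDC20) was higher and 1 (FOXM1) was lower, with a median of -0.06. In THP-1 the same sets had 18 higher and 0 lower (median 1.28), and 18 higher and 1 lower (median 0.73). The libraries C 2 and OE 2 moved with this, in opposite directions. The median deviation from the H1299 mean on the log2 scale was 0.45 for the lower-GC genes and -0.02 for the higher-GC genes in OE 2, and -0.56 and 0.11 in C 2. With transcript length the correlation was 0.45 in H1299 and 0.12 in THP-1. The part of base composition, length or either library in the H1299 rises was not tested. Without OE 2, 1 gene was called, beside 3.98% of all genes. Without C 2 it was 11 genes, 10 of them higher, beside 18.6% of all genes.

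**Figure D5:**
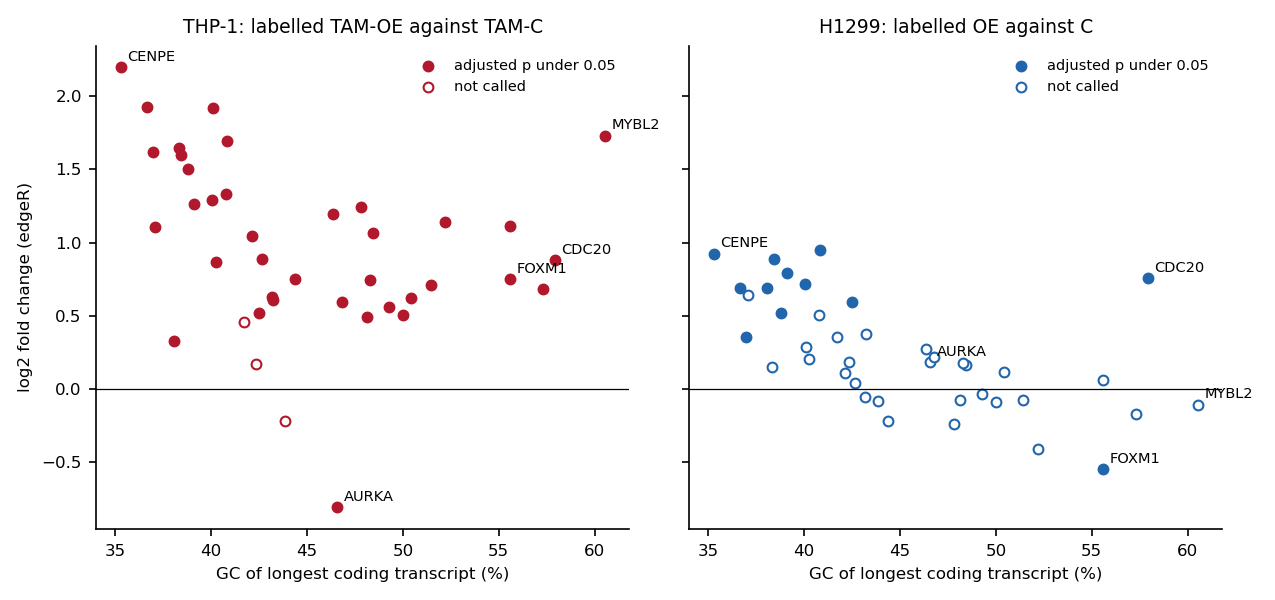
Log2 fold change of each of the 40 genes against the GC content (%) of its longest coding transcript in THP-1 (left) and H1299 (right), where filled points have an adjusted p under 0.05. In H1299 10 of the 11 called rises lie among the 20 genes of lower GC, while in THP-1 called rises are found across the whole range, with MYBL2 at the highest GC.

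Other genes of the same processes were read from lists chosen with earlier results of these data known. In THP-1 34.5% of all genes tested were called higher and 33.6% lower. Of 41 further spindle and kinetochore genes, 33 rose and 3 fell in THP-1 labelled TAM-OE, with a median log2 fold change of 0.68. ZWINT, a kinetochore protein that recruits the checkpoint (1.04), CKAP5, a microtubule polymerase (0.47), and CENPK, of the inner kinetochore (1.69), had the smallest p-values. Of 32 further genes of G2 and mitotic entry and exit, 25 rose and 4 fell, at a median of 0.54. LMNB1, the lamin of the nuclear envelope, rose by 1.01 and ENSA, an inhibitor of the phosphatase that opposes CDK1, by 0.27, while ESPL1, the separase that cleaves cohesin, fell by 0.75 on the log2 scale. Of 18 condensin and cohesin genes, 16 were higher and 1 lower (median 0.48), with SMC4 at 0.89, STAG2 at 0.49 and RAD21 at 0.32. Of 43 genes of DNA replication and S phase, 34 were higher and 3 lower (median 0.41). Among them, TK1, the thymidine kinase, rose by 1.76 and CDT1, which licenses origins, by 1.32 on the log2 scale.

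In H1299 these lists moved less, and the called replication genes moved the other way. Of all genes tested, 10.3% were higher and 10.6% lower in this line. How the list calls depend on single libraries or on base composition was not tested. Of the 41 spindle and kinetochore genes, 8 were higher and 2 lower in libraries labelled OE (median -0.01), with CKAP5 at 0.83, NEK2 at 0.58 and ZWINT at -0.66. Of the 32 genes of mitotic entry and exit, 3 were higher and 0 lower (median 0.06): G2E3 at 1.15, DEPDC1 at 0.59 and CDCA2 at 0.42. The condensin and cohesin list had 3 higher and 0 lower of 18 (median 0.26), namely SMC3 (0.75), SMC4 (0.58) and RAD21 (0.43). Of the 43 replication genes 10 fell and 0 rose, at a median of -0.23. Their summed level was 3007 to 3615 TPM in OE and 3478 to 4104 TPM in C, so these ranges overlapped. GINS2, of the replicative helicase, fell by 0.99, PCNA, the sliding clamp, by 0.55, and MCM3, also of the helicase, by 0.53 on the log2 scale. Of the 40 mitotic genes 11 were higher in the same libraries.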

How the data were processed

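Per the labels' protocols, Trizol RNA was enriched for mRNA and made into NEBNext Ultra libraries. The submitters' processing notes name fastp 0.18.0, Bowtie2 2.2.8, HISAT2, StringTie 1.3.1, RSEM and hg38, without their roles. How strand was handled, and the annotation used, is not given in the sources used here. The authors deposited, for each library, gene-level TPM and estimated counts (not normalized). Between 12.0% and 13.4% of estimated counts were not whole (no tolerance), and 605 genes had no symbol.

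After rounding to whole numbers, these counts were tested in edgeR 4.0.16 (R 4.3.3): TMM, the filterByExpr minimum of 10, the quasi-likelihood test, two-sided, and Benjamini-Hochberg adjustment over all genes tested. Each line had its own fit of 6 libraries. The difference between lines, and THP-1 against H1299, used all 12. Pairs of replicates differed by more than sampling noise (chi-square per gene from 1.55 to 2.30 in THP-1 and from 10.8 to 36.6 in H1299), and all were kept. The scripts were tested on simulated counts.

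The 40 genes and the lists were chosen with earlier results of these data known. Per-library values are given for DCBLD2, the 4 largest called rises and falls of each line, genes called in opposite directions, and the most abundant gene of each role. CDK1 and AURKB were added after their values were seen, as were KIF23 and some promoters. Of each other list, the 3 called genes with the smallest p-values per line are named, and marker lists are given as sums. A gene picked in this way is not reported here. Gene positions, lengths and GC content come from GENCODE release 29 (GRCh38), and promoters from RefSeq (GRCh38.p14). Of the 40 genes, 9 overlap a gene of the table on the opposite strand (CCNA2, PLK1, NUF2, KIF20A, KIF4A, CKAP2L, ANLN, RACGAP1 and FOXM1) and 4 on the same strand, so their counts are uncertain. The near-identical copies KIF4B and PTTG2 had almost no reads. GENCODE names pseudogenes after 9 of the 40 genes, AURKA among them, and 0 of these pseudogenes are in the expression table.

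Alternatives were a replicate block, leaving out each library, all 12 libraries in 1 fit, DESeq2 1.42.0, its size factors, a mean-count filter of 10, no filter, limma 3.58.1 on log2(TPM + 1) and log2(TPM + 0.1), sample weights, the H1299 spread, and a change beyond 1.5-fold.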

Additional observations from a re-analysis of the deposited data

Results flagged for a closer look

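The change in THP-1 (labelled TAM-OE against TAM-C) differed from that in H1299 (labelled OE against C) for 22 of the 40 mitotic genes, by a test of the difference over all 12 libraries (edgeR, adjusted p under 0.05). Over all genes tested 38.7% were called. The calls of AURKB, KIF20A, PLK1, PRC1, PTTG1 and TTK were lost in 2 to 8 of the 12 omissions of 1 library. Values are the THP-1 log2 fold change minus the H1299 log2 fold change. A positive value is thus a more positive change in THP-1, whichever change is larger in size. Among regulators and kinases they were 1.25 for CDK1, 0.96 for CCNB2, 0.92 for CCNA2, 1.83 for MYBL2, 1.29 for FOXM1, 1.05 for AURKB, 0.85 for PLK1 and -1.0 for AURKA. AURKA is the gene whose value is negative. At the centromere and kinetochore and in the checkpoint they were 1.62 for NDC80, 1.48 for CENPA, 0.97 for NUF2 and 0.81 for TTK, and for the passenger subunits 1.54 for BIRC5 and 0.78 for CDCA8. The values were 1.48 for KIF11, 0.92 for KIF4A and 0.90 for KIF20A among kinesins and 1.22 for HMMR, 0.83 for NUSAP1 and 0.55 for PRC1 among spindle assembly factors. PTTG1, at 0.58, and MKI67, at 0.56, were the other genes of the 40.

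The same test singled out 21 of the 32 genes named from the other lists, beside 38.7% of all genes tested. These 32 had been named for small p-values within 1 line, so neither their share nor their signs are a result about the lists. Replication genes had values of 2.22 for TK1, 2.14 for GINS2, 1.38 for CDT1, 0.93 for MCM3 and 0.92 for PCNA. TK1 and CDT1 had been named for rises in THP-1, and GINS2, MCM3 and PCNA for falls in H1299. Spindle and mitotic entry genes were at 1.69 for ZWINT, 1.40 for CENPK, 1.04 for LMNB1, 0.58 for ENSA and -1.26 for CDCA2. Subunits of the anaphase-promoting complex differed in both directions, with 0.98 for ANAPC11, 0.79 for ANAPC2, 0.53 for ANAPC16 and -0.96 for ANAPC1. Inhibitors of cyclin-dependent kinases were at 1.13 for CDKN2D, 0.73 for CDKN2C, 0.66 for CDKN1A and -0.31 for CDKN1B, and genes of the RB and E2F group at 0.69 for TFDP1, -0.42 for E2F6 and -1.23 for E2F5. Line, PMA and culture cannot be told apart in these differences.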

How the results depend on the processing

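In THP-1, 34 to 37 of the 40 genes were called, beside 34.5% to 68.5% of all genes, under every alternative except 1. That alternative, requiring more than 1.5-fold, called 21 genes, beside 11.5% of all genes. Without any 1 library it was 36 to 37, beside 64% to 65.4%. In H1299 the requirement of more than 1.5-fold called 0 of the 40 genes, beside 1.05% of all genes. In the same test (edgeR glmTreat) 4 of the 40 had an unadjusted p under 0.05. DESeq2 called 16 in H1299, beside 25.1% of all genes, and limma on log2(TPM + 1) called 10, beside 14.7%. Leaving out 1 library gave 1 to 16 H1299 calls, beside 3.98% to 24.5% of all genes. For the difference between lines it gave 17 to 27 calls, beside 32.4% to 41.5% of all genes. For that difference limma on log2(TPM + 1), a scale that shrinks changes of low genes, called 14, beside 40.9% of all genes. All 40 genes were lower in THP-1 than in H1299 under each alternative, beside 77.9% to 91.3% of all genes called in either direction.

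No called gene changed direction. Of the genes not called, PTTG1 (0.00059 and 0.00063) and PRC1 (0.0018 and 0.0019) turned positive in H1299 on log2(TPM + 1) and log2(TPM + 0.1). On log2(TPM + 1) the difference between lines turned negative for BUB1B (-0.034), SGO1 (-0.17), CENPE (-0.20), CENPF (-0.20), ASPM (-0.32) and DLGAP5 (-0.11), as it did for SGO1 on log2(TPM + 0.1) (-0.026). With sample weights it turned positive for BUB1 (0.060) and KIF23 (0.15). Without 1 library at a time, H1299 values crossed 0 for CCNA2 (-0.0091 to 0.21), AURKA (-0.0061 to 0.29), AURKB (-0.11 to 0.20), KIF20A (-0.024 to 0.26), KIF2C (-0.062 to 0.20), NUSAP1 (-0.037 to 0.12) and CCNB1 (-0.23 to 0.050). They also did so for UBE2C (-0.23 to 0.022), PTTG1 (-0.20 to 0.10), CDCA8 (-0.24 to 0.027), CKAP2L (-0.0028 to 0.36) and MYBL2 (-0.27 to 0.0012), and the difference did for BUB1 (-0.18 to 0.090), KIF23 (-0.15 to 0.16) and SGO1 (-0.12 to 0.31). The cause was not tested.

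With the replicate number as a block, 37 genes were called in THP-1, 11 in H1299 and 20 for the difference. The shares of all genes called were 68.5%, 14.1% and 35%. CDK1 and NUF2 lost their H1299 calls. The deviations of same-numbered libraries correlated at r of 0.02 to 0.05 in THP-1 and -0.36 to -0.11 in H1299, so the number was not taken as a pairing. Whether libraries with different numbers share a source of spread was not tested. In H1299 OE 1 and C 3 (0.33), OE 2 and C 1 (0.34) and OE 3 and C 2 (0.47) had the highest values, and no library correlated best with its own number. At 7 to 1123 reads per gene in THP-1, depth limits the lowest genes most.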

Other observations

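In THP-1 34.5% of all genes tested were higher and 33.6% lower, and in H1299 10.3% and 10.6%. Of 16 genes of the anaphase-promoting complex and its partners, 8 were higher and 6 lower in libraries labelled TAM-OE, with a median log2 fold change of 0.07. ANAPC11, its RING subunit, rose by 0.96 and UBE2S, its chain-extending enzyme, by 0.45 on the log2 scale, while ANAPC1, its scaffold, fell by 0.46 (edgeR adjusted p between 1.76e-14 and 1.26e-10). In H1299, 0 were higher and 2 lower in libraries labelled OE, ANAPC2 at -0.48 and ANAPC16 at -0.34. Of 16 RB and DREAM genes, 6 were higher and 6 lower in THP-1 (median 0.13), with RB1 at 0.27, TFDP1 at 0.35 and E2F6 at -0.55. In H1299 1 of the 16, E2F5, was higher, at 0.61.

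Of 8 inhibitors of cyclin-dependent kinases, 6 were tested in THP-1, of which 3 were higher and 1 lower. They summed to 1564 to 1612 TPM in libraries labelled TAM-OE and 1431 to 1453 TPM in those labelled TAM-C, nearly all CDKN1A, and without it to 62.1 to 66.1 TPM in TAM-OE and 60.1 to 64.4 TPM in TAM-C. CDKN1A, the p21 inhibitor, was higher by 0.18 on the log2 scale, CDKN2D (p19) by 0.97, and CDKN1B (p27) was at -0.41. CDKN1A and 36 of the 40 mitotic genes were higher in the same TAM-OE libraries. In H1299 1 of 8 was called, CDKN2C (p18), at -0.77.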
